A study of Mus musculus with 98 samples.

Results

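The 10 genes described here encode heat shock proteins and co-chaperones of the cytosol and the mitochondria: Hspa1a, Hspa1b, Hspa8, Hsph1, Dnajb1, Hsp90aa1, Hspb1, Hspe1, Hspd1 and Bag3. They were taken by name from a list, not by their values, out of 55852 gene symbols in 6 tables of RNA counts from 98 mouse libraries in 22 groups. The study raised the level of ACSS2, which converts acetate to acetyl-CoA, in cultured hippocampal neurons and in the hippocampus of mice, some of them exposed to tau. The virus was PhP.eB, either carrying Acss2 (upACSS2) or an empty vector. The labels used here do not name its promoter.

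Heat shock proteins hold other proteins in a folded state or help them to refold. Hsp70 proteins bind unfolded stretches in a cycle driven by ATP, which J-domain proteins of the Hsp40 class start and nucleotide exchange factors such as Hsp110 and BAG proteins end, and Hsp90 acts later on proteins that are nearly folded. In the mitochondrial matrix a barrel of Hsp60 with its lid, Hsp10, folds imported proteins. When unfolded proteins accumulate, the transcription factor HSF1 leaves its chaperones, forms trimers and binds heat shock elements, inverted repeats of the unit GAA, in front of these genes. In neurons Hsc70, Hsp70 and Hsp90 are known to bind tau, and BAG3 links Hsp70 to the removal of aggregated proteins by autophagy.

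Cultured neurons were primary hippocampal neurons of CD1 mouse embryos. They received a virus on day 5 for 48 h, were washed with PBS on day 7, and were then given either hAD-tau or PBS. Resting cultures were collected on day 9 or day 21, in 8 groups of 3 (upACSS2 or vector, with tau or PBS). A further 4 groups of 3 on day 21 were labelled as stimulated, with an agent that the labels do not name. A separate set on day 21 had no virus, with 3 cultures in PBS and 4 with hAD-tau. The mice were males injected behind the eye, and each was killed 30 min after a memory test. Aged C57BL6 mice (22 to 23 months, 12 with upACSS2 and 12 with vector, 1.5e11 vector genomes given 2 months earlier) gave the whole hippocampus after remote recall of a fear context. C57BL6 mice of 10 months (6 with upACSS2 and 5 with vector, 1.2e11 vector genomes given 2 weeks earlier) gave the dorsal hippocampus after the training session. PS19 mice, which carry a mutant human tau transgene driven by the prion promoter, were injected at 2.5 months with 1.5e10 vector genomes and studied after 1 or 6 months, 5 per virus and time, after recall of the context. All PS19 mice carry the transgene. At 1 month the upACSS2 mice are labelled as whole hippocampus, unlike every other PS19 group (dorsal hippocampus), so the effects of virus and tissue cannot be told apart there.

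Groups follow the sample titles, since the treatment entry contradicts the title in several groups. Acss2 itself ran from 1496 to 5459 CPM in cultures with upACSS2 and from 40.3 to 57.6 CPM in those with vector, where CPM are counts scaled to library size with TMM factors. In the mice the viruses overlapped except at 10 months (50.2 to 59.5 against 41.9 to 48.2 CPM): 46 to 61.5 against 39.8 to 53.8 CPM in the aged mice, 60.2 to 1461 against 51.1 to 66.05 CPM in PS19 mice at 1 month, and 43.7 to 241 against 42.7 to 56.3 CPM at 6 months. Named libraries of the mice therefore rest on their titles. Total counts per library ran from 5075099 to 39985460, lowest in the 10-month mice. Neuron markers (Rbfox3, Tubb3, Map2, Snap25 and Syt1) were present in every library. The cultures were not free of glia: the summed level of 8 astrocyte markers was 2267 to 2843 CPM on day 9, and on day 21 it rose to 21071 CPM in resting vector neurons in PBS (replicate 3). In 1 culture without virus, replicate 3 in PBS, oligodendrocyte precursor markers were at 14.1 CPM, against 527 and 590 CPM in the other PBS cultures, and it is left out in turn below. In bulk RNA, fewer cells of a type and less RNA per cell cannot be told apart.

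Several start sites of the set hold letters that match units of the heat shock element, and those are shown because the element is what the members are known to have in common. Sequences are from RefSeq on GRCm38.p6, the same build as mm10, 5′ to 3′ on the strand of the gene. Capitals mark matches to GAANNTTC or TTCNNGAA, each of 2 units. The table used holds 11 start sites for 8 of the 10 members, and Hspa8 and Hsp90aa1 have none. The first 2 sequences are the 200 bases before the start sites of Hspa1a, chr17:34972157-34972356 on the minus strand, and Hspb1, chr5:135887719-135887918 on the plus strand. The last 2 are windows of 30 bases, for Hspe1 at chr1:55088053-55088082 on the plus strand and for Hsph1 at chr5:149636351-149636380 on the minus strand. The capitals of Hsph1 lie within its annotated gene. Those of Hspe1 lie before its start, within the annotated Hspd1 gene on the other strand.
Hspa1a: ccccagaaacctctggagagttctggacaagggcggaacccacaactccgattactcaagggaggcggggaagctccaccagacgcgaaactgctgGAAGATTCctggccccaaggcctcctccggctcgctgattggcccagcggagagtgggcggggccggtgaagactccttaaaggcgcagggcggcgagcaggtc
Hspb1: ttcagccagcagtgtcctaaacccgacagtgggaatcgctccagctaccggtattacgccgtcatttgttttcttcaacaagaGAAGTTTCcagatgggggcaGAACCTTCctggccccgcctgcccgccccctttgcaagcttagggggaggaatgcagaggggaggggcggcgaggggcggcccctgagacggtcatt
Hspe1: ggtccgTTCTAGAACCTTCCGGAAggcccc
Hsph1: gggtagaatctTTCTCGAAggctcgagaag

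The search used GAANNTTC and its other spacing TTCNNGAA on both strands, in the 250 bases before the start, where overlapping matches were each counted. Of 32817 mouse promoter windows of that length, 6.69% held GAANNTTC and 7.16% held TTCNNGAA. Hspa1a and Hspa1b each held GAANNTTC at position -104 and CCAAT, a motif of 33.8% of promoters, at -67, and their last 200 bases differed at 1 of 200 positions. Hspb1 held 2 copies, at -117 and -97. Hspe1 and Hspd1 face each other and their annotated genes overlap. Their shared stretch holds an array of 4 units over 18 bases, chr1:55088059-55088076, 89 to 72 bases before the Hspe1 start. The array reads as its reverse complement before start site 2 of Hspd1. The longer element of 3 units occurred in 0.466% of promoter windows. It was found for Hspe1 and start site 2 of Hspd1, and not for Hspa1a, Hspa1b, Hspb1 or Hsph1. No form was found in the windows of Dnajb1, Bag3 or start site 1 of Hspd1, which says only that these letters are not there.

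Hspa1a (chr17:34969190-34972156, minus strand) and Hspa1b (chr17:34956436-34959238, minus strand) are single-exon genes for the stress-inducible Hsp70. Of the 50-base words of Hspa1a, 58.81% also occur in Hspa1b, so reads may have been split or dropped between them, and values for each are uncertain. Hspa1a also overlaps the gene model Gm20481. Hspd1 (chr1:55077835-55088243, minus strand) and Hspe1 (chr1:55088132-55091307, plus strand) overlap at their starts. Whether the counting used strand is not given in the sources used here, so reads in that overlap cannot be told apart. Bag3 (chr7:128523616-128546981, plus strand) overlaps the gene model 2610306O10Rik on the same strand. The others are Hspa8 (chr9:40800984-40810087, plus strand), Hsph1 (chr5:149614287-149636376, minus strand), Dnajb1 (chr8:83608193-83612653, plus strand), Hsp90aa1 (chr12:110690605-110702728, minus strand) and Hspb1 (chr5:135887919-135889563, plus strand), all in GRCm38 with the GENCODE vM21 annotation.

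Levels can be compared between genes only per length. As mean CPM per kb of exon, Hsp90aa1 and Hspa8 led in all 6 tables. Hsp90aa1, a cytosolic Hsp90, was at 112 to 230 and Hspa8, the constitutive Hsc70, at 108 to 230. Below them Dnajb1, Bag3 and Hspa1b ranked 6, 7 and 8 in every table, and the order of the others changed between tables. The mitochondrial Hspd1 (Hsp60) was at 40.1 to 87.1, Hsph1 (Hsp110) at 22.7 to 59.9, Hspe1 (Hsp10) at 32.2 to 39.5 and the Hsp40 protein Dnajb1 at 12.9 to 30.1. Bag3 was at 2.72 to 7.63, Hspa1b at 1.29 to 2.69, Hspa1a at 0.554 to 1.90 and the small heat shock protein Hspb1 at 0.935 to 2.18. In culture the rarer members varied more between groups. There the highest group mean was 8.85 times the lowest for Bag3, 7.73 times for Hspa1a and 4.07 times for Hspa1b. The ratio was 2.62 for Hsp90aa1, 2.61 for Dnajb1, 1.90 for Hsph1, 1.73 for Hspa8, 1.50 for Hspd1 and 1.37 for Hspe1. In the mice the same ratio was 1.69 for Bag3 and 1.20 to 1.48 for the others. Abundant Hsp90aa1 (1.48) there lay above Hspa1a (1.33) and Hspa1b (1.45). Neuron tables with virus list 25239 symbols and the remaining ones 55367, so levels across tables are set side by side without a test.

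**Figure D1:**
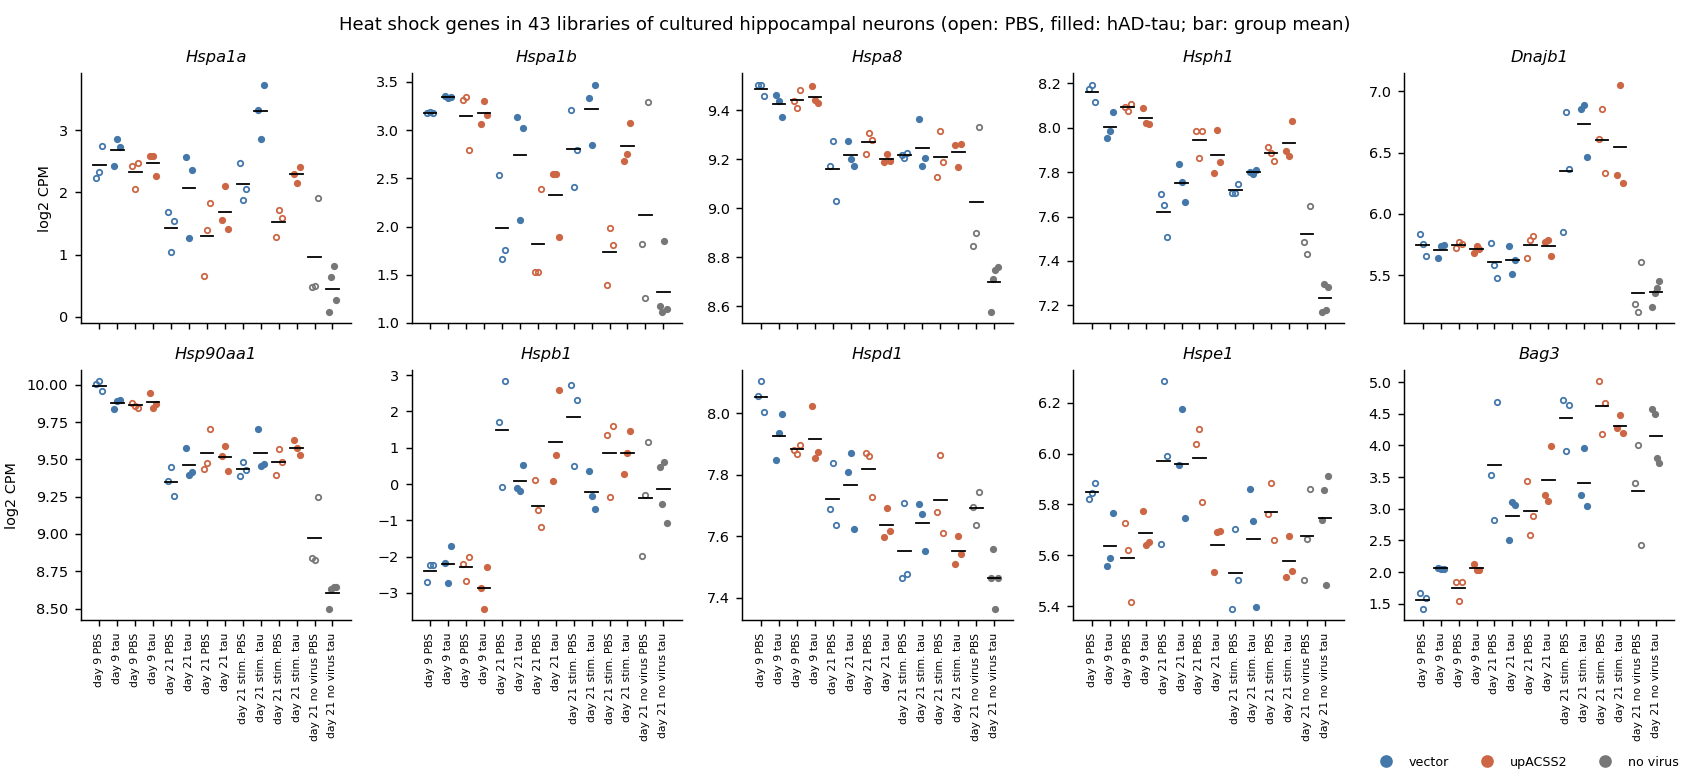
Level of each member in the cultured neurons, as log2 CPM on the vertical axis, with 1 point per library (open for PBS, filled for hAD-tau) and the group mean as a line, grouped by culture day, stimulation, virus and tau. In resting cultures the group means of Hspa1a and Hspa1b lie lower on day 21 than on day 9, while those of Bag3 and Hspb1 lie higher. Those of Hspa8, Hspd1 and Hspe1 move within a narrow band.

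Between day 9 and day 21 the cultures changed in most of their genes, and the heat shock proteins separated into members that fell and members that rose. Hspa1a, Hspa1b, Hspa8, Hsph1, Hsp90aa1 and Hspd1 were lower on day 21, and Bag3 and Hspb1 higher, in vector cultures in PBS. The comparison asks how culture age moves the set, and all 24 resting libraries were fitted together. Of all genes tested, 57.6% changed in vector in PBS, 52.6% in vector with tau, 54.2% in upACSS2 in PBS and 53.5% in upACSS2 with tau (edgeR, adjusted p under 0.05). Of the 10 members, 8, 6, 6 and 7 passed the same test, and 8, 6, 8 and 8 did not overlap between the days, as did 58.4%, 59.7%, 64.5% and 68.3% of all genes. Hspb1 is counted among them, though it passed the filter on low counts only through day 21. Read against that background, the counts of members are not large, and what sets the members apart from one another is their direction.

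Hspa1a was at 4.62, 4.92 and 6.65 CPM on day 9 and 3.13, 1.96 and 2.82 CPM on day 21 in vector in PBS, in the order of the replicates as in every such list. In upACSS2 in PBS it was at 5.27, 4.07 and 5.47 CPM on day 9 and 1.48, 2.54 and 3.47 CPM on day 21. The days did not overlap in either pair of groups. The log2 fold change was -1.03 ± 0.30 (SE, n = 3, adjusted p = 0.00674, edgeR) in vector and -1.01 ± 0.31 (adjusted p = 0.00985) in upACSS2. With tau, Hspa1a was at 5.29, 7.18 and 6.53 CPM on day 9 and 5.83, 2.31 and 5.05 CPM on day 21 in vector, so the days overlapped (-0.52, adjusted p = 0.15). In upACSS2 with tau the fall was from 5.90, 5.88 and 4.72 CPM to 2.85, 4.21 and 2.57 CPM, without overlap (-0.77, adjusted p = 0.0364), a call lost in 4 of 6 fits that left out 1 library (adjusted p 0.0893 to 0.13 there). The call in upACSS2 in PBS was lost without day 21 replicate 1 (-0.73, adjusted p = 0.0649), and that in vector in PBS by limma with a variance per group (adjusted p = 0.0657).

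Hspa1b followed the same course at a higher level. It was at 8.96, 9.00 and 8.94 CPM on day 9 and 5.69, 3.08 and 3.29 CPM on day 21 in vector in PBS, and at 9.87, 10.04 and 6.83 CPM against 2.79, 2.79 and 5.13 CPM in upACSS2 in PBS. All day 21 libraries of these groups lay below all day 9 libraries. The log2 fold changes were -1.17 ± 0.28 (adjusted p = 0.00125, edgeR) and -1.33 ± 0.28 (adjusted p = 0.000539). With tau they were -0.53 (adjusted p = 0.109) in vector and -0.83 (adjusted p = 0.0151) in upACSS2, the latter lost without day 21 replicate 3 (-0.65, adjusted p = 0.0805). The sum of both copies, which does not depend on how reads were split between them, fell by 1.12 in vector in PBS (adjusted p = 0.0012) and by 1.21 in upACSS2 in PBS (adjusted p = 0.0008) on the log2 scale. The share of Rn45s, the precursor of ribosomal RNA and a sign of RNA or library quality, of counts was 0.198% to 1.02% on day 9 and 0.418% to 11% on day 21. With that share as a covariate the log2 fold change of Hspa1a was -0.58 (adjusted p = 0.0794) in vector in PBS and -0.37 (adjusted p = 0.331) in upACSS2 in PBS, and that of Hspa1b was -0.80 (adjusted p = 0.016) and -0.81 (adjusted p = 0.0293). In upACSS2 with tau the values were -0.39 (0.212) for Hspa1a and -0.52 (0.0869) for Hspa1b.

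Hspb1, a small heat shock protein that binds unfolding proteins without ATP, was close to absent on day 9, with 0 to 3 counts in each library. On day 21 it was at 3.18, 0.846 and 6.99 CPM in vector in PBS, 0.828, 0.787 and 1.35 CPM in vector with tau, 0.985, 0.516 and 0.352 CPM in upACSS2 in PBS and 0.967, 1.67 and 5.93 CPM in upACSS2 with tau. Every day 21 library lay above the highest day 9 library, at 0.213 CPM, and the day 21 libraries of a group differed from one another several-fold. Over the summed counts of a group, the level on day 21 was 49 times that on day 9 in vector in PBS (326 against 6 counts, 95% interval for counting error 22.3 to 135) and 55.7 times in upACSS2 with tau (190 against 4 counts, 21.4 to 207). It was 8.56 times (69 against 6 counts, 3.74 to 24.1) in vector with tau and 5.74 times (43 against 7 counts, 2.56 to 15.1) in upACSS2 in PBS. The test over libraries passed in vector in PBS (adjusted p = 3.9e-05), upACSS2 with tau (5.8e-05) and vector with tau (0.0194), the last lost without day 21 replicate 3 (0.0569), day 9 replicate 1 (0.0535) or day 9 replicate 2 (0.0758). It did not pass in upACSS2 in PBS (0.0563). Hspb1 was under the filter on low counts in the fit of day 9 alone and passed it here only through day 21. These p-values are therefore no independent support for its rise. In vector in PBS, replicate 3 of day 21 held 238 of the 326 counts.

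Bag3 rose with culture age in all 4 conditions. On day 9 it was at 3.07, 2.58 and 2.90 CPM in vector in PBS and 3.50, 2.82 and 3.49 CPM in upACSS2 in PBS. On day 21 it was at 11.5, 7.00 and 25.7 CPM in vector in PBS and 10.7, 5.89 and 7.29 CPM in upACSS2 in PBS. No day 21 library overlapped day 9, and replicate 3 of vector in PBS, the library with the highest astrocyte markers, was far above the rest. The log2 fold changes were 2.36 ± 0.35 (adjusted p = 1.04e-05, edgeR) and 1.27 ± 0.35 (adjusted p = 0.00447), with 1.68 (adjusted p = 4.19e-05) in vector in PBS when replicate 3 of day 21 was left out. With tau, Bag3 rose from 4.08, 4.06 and 4.05 CPM to 5.61, 8.50 and 8.23 CPM in vector (0.86 ± 0.35, adjusted p = 0.0447), a call lost in 5 of 6 fits that left out 1 library (0.0905 to 0.122 there). In upACSS2 with tau it rose from 4.27, 4.01 and 4.01 CPM to 9.24, 8.60 and 15.9 CPM (1.46 ± 0.34, adjusted p = 0.00117).

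The abundant chaperones fell by less. Hsp90aa1 was at 1030, 1040 and 994 CPM on day 9 and 655, 697 and 610.0 CPM on day 21 in vector in PBS, and its log2 fold change was -0.65 ± 0.08 (adjusted p = 1.23e-06, edgeR). It fell in the other groups too, by 0.42 in vector with tau (adjusted p = 0.000217), by 0.32 in upACSS2 in PBS (0.00221) and by 0.37 in upACSS2 with tau (0.000597). Hspa8, which refolds and disassembles protein complexes in unstressed cells, was at 726, 725 and 704 CPM against 578, 620 and 522 CPM in vector in PBS (-0.33 ± 0.07, adjusted p = 0.000502). Its fall passed in the other groups as well (-0.18 to -0.26, adjusted p 0.00429 to 0.0385), though in upACSS2 in PBS 5 of 6 fits with 1 library left out lost the call (0.0588 to 0.125), and in vector with tau the fit without day 9 replicate 1 did (-0.19, adjusted p = 0.0559).

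Hsph1, the nucleotide exchange factor, went from 289, 293 and 277 CPM to 208, 201 and 182 CPM in vector in PBS (-0.54 ± 0.07, adjusted p = 2.57e-06) and fell by 0.26 in vector with tau (0.00545). In upACSS2 its log2 fold change was -0.15 in PBS (0.0854) and -0.16 with tau (0.0603). Hspd1 went from 266, 275 and 257 CPM to 206, 229 and 199 CPM in vector in PBS (-0.33 ± 0.08, adjusted p = 0.000913) and fell by 0.28 in upACSS2 with tau (0.00396), with -0.17 (0.0747) and -0.06 (0.497) in vector with tau and upACSS2 in PBS. Its partner Hspe1 did not follow it: Hspe1 was higher on day 21 in vector with tau (0.32, adjusted p = 0.0381) and upACSS2 in PBS (0.39, adjusted p = 0.0128), with 0.14 (0.341) in vector in PBS and -0.05 (0.768) in upACSS2 with tau. The first of these calls was lost in 4 of 6 fits with 1 library left out (0.20 and adjusted p = 0.232 without day 21 replicate 2), and the second without day 21 replicate 2 (0.33, 0.0666) or day 9 replicate 3 (0.31, 0.0744) and with the Rn45s share as a covariate (0.10, 0.482). Dnajb1, at 49.9 to 56.9 CPM on day 9, had log2 fold changes of -0.14 to 0.02 (adjusted p 0.142 to 0.993).

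**Figure D2:**
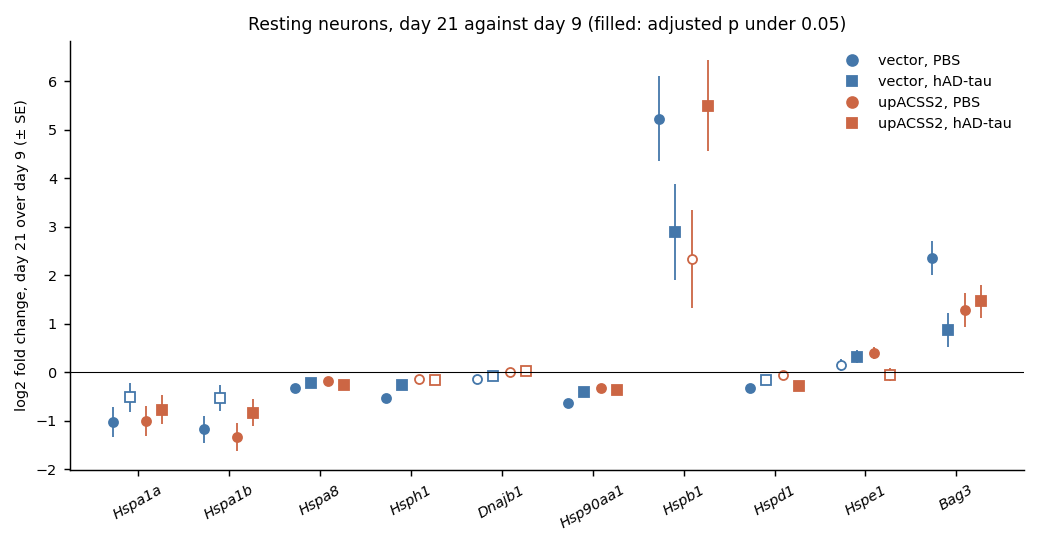
Log2 fold change of each member, day 21 against day 9, on the vertical axis, for the 4 conditions of resting neurons, with the standard error of the fit as bars and filled points for an adjusted p under 0.05. Bag3 and Hspb1 lie above 0 in all 4 conditions, and Hspa1a, Hspa1b, Hspa8 and Hsp90aa1 below it.

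Of 62 other genes of the chaperone network fixed as a list, 59 were tested between the days. In vector in PBS 12 rose and 28 fell (median log2 fold change -0.19, against 0.05 over all genes tested), in vector with tau 16 and 24, in upACSS2 in PBS 17 and 21, and in upACSS2 with tau 12 and 26. Genes for small heat shock proteins were among those that rose most: Hspb8, the partner of BAG3, by 3.14, 2.45, 2.27 and 2.32 in the 4 conditions, and Cryab by 2.11, 1.51, 1.48 and 1.68 on the log2 scale. Dnaja4, an Hsp40 protein, rose by 1.07, 0.91, 1.19 and 1.32. Beside these changes, the summed neuron markers fell from 5439 to 6148 CPM on day 9 to 3076 to 4681 CPM on day 21, the oligodendrocyte precursor markers rose from 5.12 to 21.0 CPM to 287 to 518 CPM, and the astrocyte markers were at 3664 CPM or more in every resting day 21 library. Their part in the members' changes was not tested beyond the relation with the astrocyte markers given further on.

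On day 9, 3 members were slightly lower with upACSS2 than with vector in cultures in PBS. Of the 9 members tested (Hspb1 was under the filter on low counts), Hsp90aa1, Hspd1 and Hspe1 were lower in upACSS2, where 10.4% of all genes tested passed in either direction, and 4 members did not overlap between the groups, against 29% of all genes. Hsp90aa1 was at 942.5, 928.5 and 921 CPM in upACSS2 against 1030, 1040 and 994 CPM in vector (-0.14 ± 0.03, adjusted p = 0.0121, edgeR). Hspd1 was at 236, 234 and 238 CPM against 266, 275 and 257 CPM (-0.17 ± 0.05, adjusted p = 0.0139), and Hspe1 at 52.8, 49.2 and 42.6 CPM against 56.4, 57.4 and 58.9 CPM (-0.25 ± 0.07, adjusted p = 0.0161). Every upACSS2 library of these 3 genes lay below every vector library, by a small margin. The part of the neuron and glia markers in these small differences was not tested.

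Each of the 3 calls depended on single libraries. That of Hsp90aa1 was lost without vector replicate 2 (-0.11, adjusted p = 0.0579), that of Hspd1 without upACSS2 replicate 1 (-0.17, 0.055) or vector replicate 2 (-0.14, 0.0712), and that of Hspe1 without upACSS2 replicate 3 (-0.17, 0.102). The Rn45s share was 0.217% to 0.261% in the upACSS2 libraries and 0.272% to 0.474% in the vector libraries, without overlap, and with that share as a covariate the adjusted p was 0.054, 0.0899 and 0.124. Of the 59 other chaperone genes tested, 2 rose and 20 fell in this comparison (median -0.11, against -0.00 over all genes). Among those that fell were the mitochondrial ribosomal gene Mrpl18 (-0.34, 0.0049), Dnaja4 (-0.33, 0.0287) and Clpx, a mitochondrial unfoldase (-0.26, 0.00872).

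With tau on day 9, upACSS2 and vector gave no call among the members by edgeR, none at an unadjusted p under 0.05 and none by DESeq2 (log2 fold changes -0.23 to 0.04, 0.827% of all genes called). Tau against PBS in vector cultures gave 2 members, where 4.29% of all genes passed. Hsph1 was at 248, 253 and 268 CPM with tau and 289, 293 and 277 CPM in PBS (-0.15 ± 0.04, adjusted p = 0.0262). Bag3 was at 4.08, 4.06 and 4.05 CPM with tau and 3.07, 2.58 and 2.90 CPM in PBS (0.50 ± 0.15, adjusted p = 0.0496). In both genes the groups did not overlap, as in 6 of the 9 members tested and 20.3% of all genes. The call of Hsph1 was lost without vector PBS replicate 1 (0.103) or 2 (0.0957) or vector tau replicate 1 (0.14) or 2 (0.132), and that of Bag3 in all 6 such fits (0.0584 to 0.18) and by DESeq2 (0.126). Hsp90aa1 stood at -0.11 (0.0567 by edgeR, 0.0345 by DESeq2). The part of the neuron and glia markers and the activity genes in these tau differences was not tested either.

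Of the other chaperone genes, 6 of 59 fell with tau in vector cultures on day 9 and none rose (median -0.09). Of these, 4 encode subunits of the cytosolic chaperonin that folds tubulin and actin, among them Cct3 (-0.20, adjusted p = 0.00862), Cct7 (-0.18, 0.0183) and Cct8 (-0.17, 0.0175). The largest fall was that of Mrpl18 (-0.37, 0.00759). In upACSS2 cultures, tau against PBS gave no member by edgeR or DESeq2 (1 at an unadjusted p under 0.05, with 0.449% of all genes called) and 1 other chaperone gene, Hspa2 (0.26, adjusted p = 0.0341). The comparisons of tau and of virus share their libraries. The difference between the tau effects, tested as an interaction, reached no member by edgeR or DESeq2 (3 at an unadjusted p under 0.05, with 0.977% of all genes called), and its values ran from -0.20 for Bag3 (adjusted p = 0.663) to 0.29 ± 0.09 for Hspe1 (adjusted p = 0.107).

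On day 21 in resting cultures no member passed the edgeR test in any comparison. The counts of members at an unadjusted p under 0.05 were 2 for the virus in PBS, 0 for the virus with tau, 3 for tau in vector, 1 for tau in upACSS2 and 2 for the interaction, and DESeq2 called 2 in the first and none in the others. Of all genes, 0.0137%, 0.0273%, 0%, 0% and 0% passed, so the background was close to 0 as well. Spread was larger on this day, with a common biological coefficient of variation of 0.189 against 0.042 on day 9. Hsph1 was at 253, 233 and 253 CPM in upACSS2 against 208, 201 and 182 CPM in vector, both in PBS, without overlap, as 17.9% of all genes (0.32 ± 0.10, adjusted p = 0.202 by edgeR and 0.0316 by DESeq2). Hspb1 (-2.56, adjusted p = 0.205 and 0.0349) was the other member that DESeq2 called.

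With tau in vector cultures on day 21, Hspa1a had a log2 fold change of 0.75 (adjusted p = 0.537), Hspa1b of 0.80 (0.536), Bag3 of -0.99 (0.536) and Hspb1 of -1.90 (0.536). In each of these, and in all other members, the tau and PBS libraries overlapped, while 9.72% of all genes did not overlap. Hspa1b, for example, was at 8.71, 4.09 and 8.06 CPM with tau and 5.69, 3.08 and 3.29 CPM in PBS. None of the 59 other chaperone genes passed in any resting day 21 comparison. The astrocyte markers of these libraries ran from 3664 to 5839 CPM with tau and from 4707 to 21071 CPM in PBS.

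In stimulated vector cultures on day 21, Hspa1a was higher with tau than in PBS, a call that depended on single libraries. Hspa1a was at 9.92, 7.18 and 13.2 CPM in vector with tau and 5.47, 3.59 and 4.06 CPM in vector in PBS. In upACSS2 it was at 4.86, 4.36 and 5.26 CPM with tau and 2.35, 3.21 and 2.93 CPM in PBS. Vector with tau lay above the 3 other groups in every library, and upACSS2 in PBS below them. The log2 fold change for tau in vector was 1.22 ± 0.23 (adjusted p = 0.0296, edgeR), the only member past the threshold there, where 2.75% of all genes passed, and 3 members did not overlap, against 26.8% of all genes. The call was lost without vector PBS replicate 1 (1.41, adjusted p = 0.134) or 3 (1.17, 0.127), without vector tau replicate 1 (1.23, 0.0683) or 3 (0.97, 0.12), and with the Rn45s share, 0.236% to 1.13% in stimulated cultures, as a covariate (0.0946). Between these groups the astrocyte markers (3013 to 4736 CPM with tau, 6341 to 10153 CPM in PBS), the microglia markers (7.45 to 10.4 against 4.33 to 5.14 CPM), the mural and fibroblast markers (17.5 to 21.4 against 21.96 to 30.96 CPM) and the choroid plexus markers (2.82 to 3.13 against 4.23 to 5.38 CPM) did not overlap, and their part in the difference was not tested.

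The near-identical Hspa1b showed less of this. It was at 10.0, 7.10 and 11.02 CPM in vector with tau, 9.16, 5.24 and 6.88 CPM in vector in PBS, 6.33, 6.66 and 8.33 CPM in upACSS2 with tau and 2.56, 3.89 and 3.44 CPM in upACSS2 in PBS. Tau and PBS overlapped in vector (0.41, adjusted p = 0.304). They did not overlap in upACSS2 (1.11 ± 0.24, adjusted p = 0.082 by edgeR and 0.00157 by DESeq2). Summed over both copies (Hspa1a+Hspa1b), the tau effect was 0.77 in vector (adjusted p = 0.0689) and 0.97 in upACSS2 (adjusted p = 0.0973), and the interaction of tau and virus was 0.19 (adjusted p = 0.818).

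Between the viruses in stimulated cultures no member passed with edgeR. With tau, Hspa1a was lower in upACSS2 than in vector by 1.07 ± 0.23 on the log2 scale without overlap (log2 fold change -1.07, adjusted p = 0.0536). The replicate numbers pair these libraries, and with the number as a block the adjusted p was 0.0349. Without vector tau replicate 2 it was 0.0271 (-1.28), and by DESeq2 0.00133. Between these groups with tau the astrocyte markers did not overlap (7478 to 8445.5 CPM with upACSS2, 3013 to 4736 CPM with vector). Nor did the mural and fibroblast markers (27.6 to 35.1 against 17.5 to 21.4 CPM) or the choroid plexus markers (4.18 to 5.70 against 2.82 to 3.13 CPM). Their part in the difference was not tested. In PBS, Hspa1b was lower in upACSS2 without overlap (-1.10 ± 0.24, adjusted p = 0.0855 by edgeR, 0.00248 by DESeq2, and 0.0424 without vector PBS replicate 2). The other copy showed less in each case: Hspa1b with tau was at -0.40 (adjusted p = 0.356, edgeR) and Hspa1a in PBS at -0.62 (0.242). Summed over both copies, the virus difference was -0.71 with tau (adjusted p = 0.111, edgeR) and -0.90 in PBS (0.112). For the virus, 2 members with tau and 3 in PBS had an unadjusted p under 0.05, DESeq2 called 2 and 1, and 0.91% and 0.234% of all genes passed. In each of these comparisons 3 members did not overlap, against 24.6% of all genes with tau and 22.8% in PBS. Tau against PBS in upACSS2 gave 0 members (2 at an unadjusted p under 0.05, 1 by DESeq2, 0.194% of all genes called, 3 members and 23.9% of all genes without overlap), and the interaction 0 (1 at an unadjusted p under 0.05, 0 by DESeq2, 0% of all genes).

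Bag3 and Hspb1 stood the other way in stimulated cultures with tau. Bag3 was at 9.19, 15.5 and 8.20 CPM in vector with tau and 26.4, 15.1 and 24.8 CPM in vector in PBS, with 1 tau library just above the lowest PBS library (-0.999 ± 0.28, adjusted p = 0.067 by edgeR and 0.00586 by DESeq2). Its level was 32.2, 18.1 and 25.4 CPM in upACSS2 in PBS and 19.3, 22.2 and 18.2 CPM in upACSS2 with tau. Hspb1 was at 1.20, 0.722 and 0.547 CPM in vector with tau and 6.57, 1.33 and 4.91 CPM in vector in PBS, without overlap (-2.37 ± 0.66, adjusted p = 0.0673 by edgeR, 0.0424 with the replicate block and 0.00245 by DESeq2). Leaving out vector PBS replicate 2 gave an adjusted p of 0.0179 for Hspb1 and 0.0246 for Bag3, and leaving out vector tau replicate 2 gave 0.0233 for Bag3. The part of the markers given above for Hspa1a in these differences was not tested either. Of the 61 other chaperone genes tested, only Hspbap1 passed for tau in vector (-0.68, adjusted p = 0.0457), and none in the other stimulated comparisons.

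**Figure D3:**
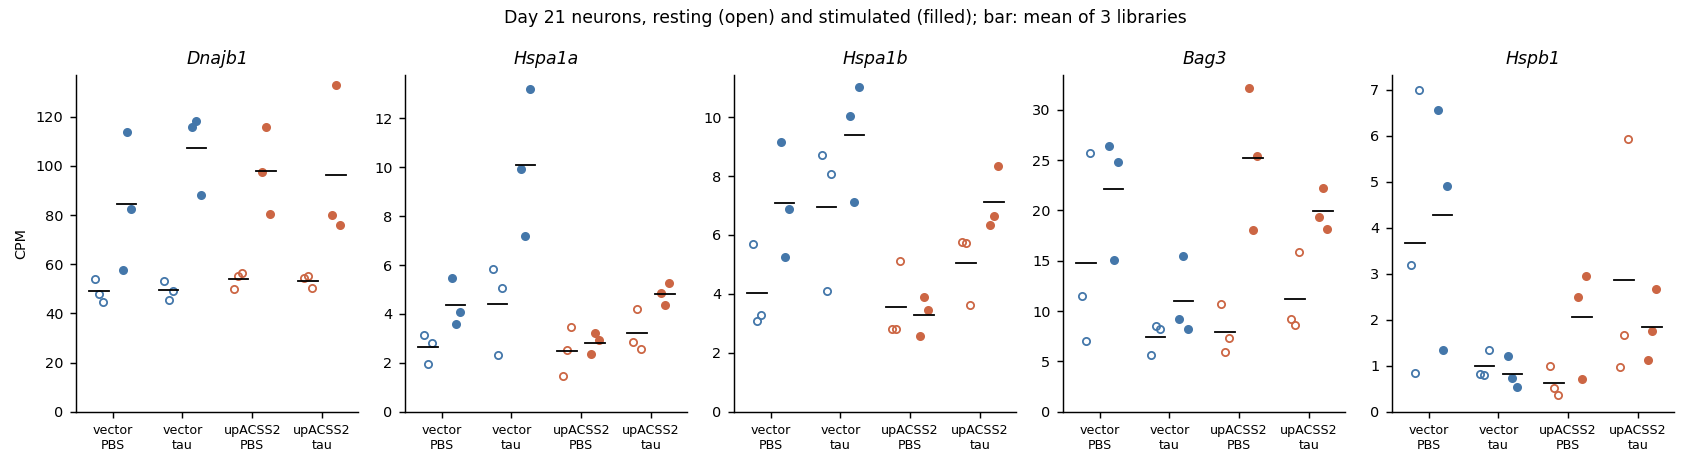
Level in CPM of Dnajb1, Hspa1a, Hspa1b, Bag3 and Hspb1 in the resting and stimulated day 21 cultures, with 1 point per library and the group mean as a line. For Hspa1a the 3 stimulated libraries of vector with tau lie at 7.18 to 13.2 CPM, above the other stimulated groups.

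Stimulated and resting day 21 cultures were deposited in separate tables with the same gene symbols, so table and stimulation cannot be told apart, and their joint fit was added after the data were seen. Genes that neurons switch on when active (10 in the list, such as Fos, Arc and Npas4) summed to 6040 to 8363 CPM in the stimulated libraries and 135 to 378 CPM in the resting ones. Dnajb1, which starts the Hsp70 cycle, was the one member that passed in all 4 conditions, higher in the stimulated cultures. It was at 57.6, 114 and 82.6 CPM in stimulated vector in PBS against 54.1, 47.9 and 44.6 CPM at rest, and at 116, 118 and 88.1 CPM against 53.4, 45.4 and 49.3 CPM in vector with tau. In upACSS2 it was at 97.5, 116 and 80.5 CPM against 49.9, 55.1 and 56.4 CPM in PBS, and at 79.8, 133 and 76.1 CPM against 54.5, 55.03 and 50.3 CPM with tau. No stimulated library overlapped the resting libraries of its condition, which held for 2, 2, 3 and 5 members in the 4 conditions, against 22.6%, 17.1%, 24.9% and 21.2% of all genes.

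The log2 fold change of Dnajb1 was 0.77 ± 0.21 (adjusted p = 0.0304, edgeR) in vector in PBS, 1.10 ± 0.21 (0.00424) in vector with tau, 0.83 ± 0.21 (0.0286) in upACSS2 in PBS and 0.82 ± 0.21 (0.0413) in upACSS2 with tau. In vector with tau all 6 fits with 1 library left out kept the call (1.02 to 1.21, highest adjusted p 0.0316). In the other conditions 4, 5 and 4 of 6 such fits lost it, down to 0.49 (adjusted p = 0.151) without stimulated vector PBS replicate 2 and 0.52 (0.343) without stimulated upACSS2 tau replicate 2. With the Rn45s share as a covariate the adjusted p of Dnajb1 was 0.0535, 0.0122, 0.0559 and 0.0536 in the 4 conditions, at log2 fold changes of 0.79, 1.12, 0.85 and 0.83. The shares of all genes called were 7.05%, 2.85%, 3.74% and 2.34%, and 2, 1, 2 and 1 members passed. Bag3 rose in upACSS2 in PBS (1.62 ± 0.39, adjusted p = 0.019), and Hspe1 fell in vector in PBS (-0.48 ± 0.14, adjusted p = 0.0486), each lost in 4 of 6 fits with 1 library left out (adjusted p up to 0.117 and 0.242) and with the Rn45s covariate (0.101 and 0.139). Hspa1a was at 1.16 ± 0.32 in vector with tau (adjusted p = 0.0511).

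Among 61 other chaperone genes, 3, 2, 3 and 1 rose and 1, 0, 1 and 0 fell with stimulation. Dnajb4, another Hsp40 protein, rose in all 4 conditions (0.84, 0.85, 0.98 and 0.79). Dnajb5 rose in vector in PBS (0.57) and Hspa14 in upACSS2 in PBS (0.57).

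Cultures without a virus showed the spread that 1 culture can add. With hAD-tau, Hspa1a was at 0.967, 1.48, 1.67 and 1.11 CPM, and in PBS at 1.31, 1.31 and 3.66 CPM. Hspa1b was at 2.17, 2.08, 3.50 and 2.12 CPM with tau and 3.44, 2.30 and 9.68 CPM in PBS. In both genes replicate 3 of PBS was far above all others and the rest overlapped. No member passed with edgeR or DESeq2, while 4 had an unadjusted p under 0.05 and 0.00612% of all genes were called. The log2 fold changes were -0.74 ± 0.44 for Hspa1a (adjusted p = 0.453) and -1.10 ± 0.50 for Hspa1b (0.38), and -0.02 and -0.18 without that library.

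The abundant members were lower with tau in these cultures, without a call. Hsp90aa1 was at 361.5, 397, 399 and 400.0 CPM with tau against 457, 454 and 609 CPM in PBS, Hspa8 at 382, 419, 429 and 434 CPM against 461, 478 and 645 CPM, and Hsph1 at 144, 157, 145 and 156 CPM against 179, 173 and 200.5 CPM. None of these overlapped, nor did Hspd1, which makes 4 of 10 members, against 16.2% of all genes. Their log2 fold changes were -0.40, -0.36, -0.31 and -0.25 (adjusted p 0.332 to 0.354), and -0.25, -0.19, -0.24 and -0.22 without PBS replicate 3. Bag3 was at 23.8, 22.4, 13.9 and 13.2 CPM with tau and 10.5, 15.9 and 5.31 CPM in PBS (0.78, adjusted p = 0.41). Of the marker sums, 3 did not overlap between these groups: the neuron markers (1845 to 2348 CPM with tau, 2418 to 3670 CPM in PBS), the oligodendrocyte precursor markers (856 to 1569 against 14.1 to 590 CPM) and the activity genes (601 to 881 against 259 to 377 CPM). The astrocyte markers were 7255 to 14121 CPM with tau and 2197 to 10054 CPM in PBS, overlapping. Their part in the members' values was not tested. None of the 59 other chaperone genes passed.

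In the hippocampus of mice the virus changed no member past the threshold. In aged mice Hspa1a had a lowest, median and highest level of 3.99, 5.06 and 6.15 CPM with upACSS2 and 3.27, 4.87 and 6.46 CPM with vector. Bag3 was at 6.55, 8.45 and 12.03 CPM against 5.79, 7.51 and 9.45 CPM, and Hsp90aa1 at 623, 784 and 886 CPM against 636, 832.5 and 912 CPM. The groups overlapped in all 10 members. Replicates 1 to 3 of both viruses stood apart from replicates 4 to 12 on the first principal component of the table (35.5% of the variance, taken over the genes that varied most, with scores of -42.3 to -27.7 against -1.88 to 22.1). Within these sets the difference of mean log2 CPM, upACSS2 minus vector, ran from -0.26 (Hspa1b) to 0.05 (Hspb1) in the 6 mice and from -0.14 (Hspe1) to 0.27 (Hspb1) in the 18 mice. Over all mice log2 fold changes ran from -0.12 to 0.24, with 0 members by edgeR, at an unadjusted p under 0.05 and by DESeq2, and 0% of all genes called.

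At 10 months after 2 weeks of virus, Dnajb1 was at 49.9, 56.6 and 71.8 CPM (lowest, median and highest of 6) with upACSS2 and 46.5, 44.4, 53.9, 46.2 and 60.7 CPM with vector (0.23, adjusted p = 0.56). Hsp90aa1 was at 589.5, 662 and 726 CPM against 859, 768, 788, 631 and 752 CPM (-0.21, adjusted p = 0.558). Groups overlapped in both, and these were the largest folds in either direction among the 9 members tested. Here 2 members had an unadjusted p under 0.05, DESeq2 called none, and 0% of all genes passed.

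In PS19 mice the 2 viruses gave log2 fold changes of -0.21 to 0.22 at 1 month and -0.25 to 0.30 at 6 months, with no member called by edgeR or DESeq2, 0 and 1 at an unadjusted p under 0.05 and 0% of all genes called at either time. Hspe1 had the largest value at 6 months, at 60.9, 56.4, 81.6, 57.3 and 53.4 CPM with upACSS2 and 50.6, 51.5, 46.5, 42.8 and 59.9 CPM with vector (0.30, adjusted p = 0.271), overlapping. Choroid plexus markers reached 5971 CPM in a 6-month upACSS2 library, against 442 CPM at most with vector, and their part in the values was not tested. Of 58 other chaperone genes tested in the mice, none passed for the virus at any age.

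In vector PS19 mice Bag3 came close to the threshold between the times after injection, without passing it by edgeR. It was at 7.02, 8.50, 7.64, 8.28 and 10.7 CPM at 1 month and 9.48, 9.97, 16.9, 13.5 and 11.7 CPM at 6 months, with 1 library of the earlier time inside the range of the later. The log2 fold change was 0.54 ± 0.16 (adjusted p = 0.051 by edgeR, 0.0323 by DESeq2), and 3 of the fits with 1 library left out passed: without 1-month replicate 5 (0.62, 0.0272), 6-month replicate 1 (0.60, 0.0409) and 6-month replicate 2 (0.59, 0.0399). No member passed by edgeR, 3 had an unadjusted p under 0.05, and 7.41% of all genes passed. Hspe1 went from 66.3, 70.4, 54.3, 61.1 and 60.8 CPM to 50.6, 51.5, 46.5, 42.8 and 59.9 CPM (-0.33 ± 0.12, adjusted p = 0.0842), and Hsp90aa1 had -0.25 (0.197).

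In the upACSS2 mice, whose tissue label changes between the times, Bag3 was at 6.28, 6.81, 8.22, 7.31 and 7.84 CPM at 1 month and 13.5, 9.82, 7.58, 9.36 and 11.5 CPM at 6 months (0.50 ± 0.17, adjusted p = 0.224). No member passed there with either tool, 1 had an unadjusted p under 0.05 and 0.0442% of all genes were called. The interaction of time and virus called no member by edgeR or DESeq2 (1 at an unadjusted p under 0.05, 0% of all genes), with 0.41 for Hspe1 (adjusted p = 0.369) and -0.04 for Bag3 (0.967). Of the 58 other chaperone genes, 6 fell and none rose between 1 and 6 months in vector mice (median -0.08), among them the Hsp40 gene Dnajb6 (-0.30, adjusted p = 0.0281), Hsbp1, whose protein binds HSF1 (-0.29, 0.0418), Grpel1, the exchange factor of mitochondrial Hsp70 (-0.27, 0.0262), and Hspbp1 (-0.27, 0.0359). In these vector mice the astrocyte markers were 4432 to 6957 CPM at 1 month and 5584 to 10709 CPM at 6 months. The microglia markers were 241 to 729 and 340 to 783 CPM, and the neuron markers 5227 to 6372 and 3960 to 5972 CPM. The oligodendrocyte precursor markers did not overlap (51.0 to 64.2 against 65.9 to 73.2 CPM). In the upACSS2 mice the mural and fibroblast markers did not overlap (61.4 to 70.9 CPM at 1 month, 92.8 to 113 CPM at 6 months). The part of these markers was not tested.

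**Figure D4:**
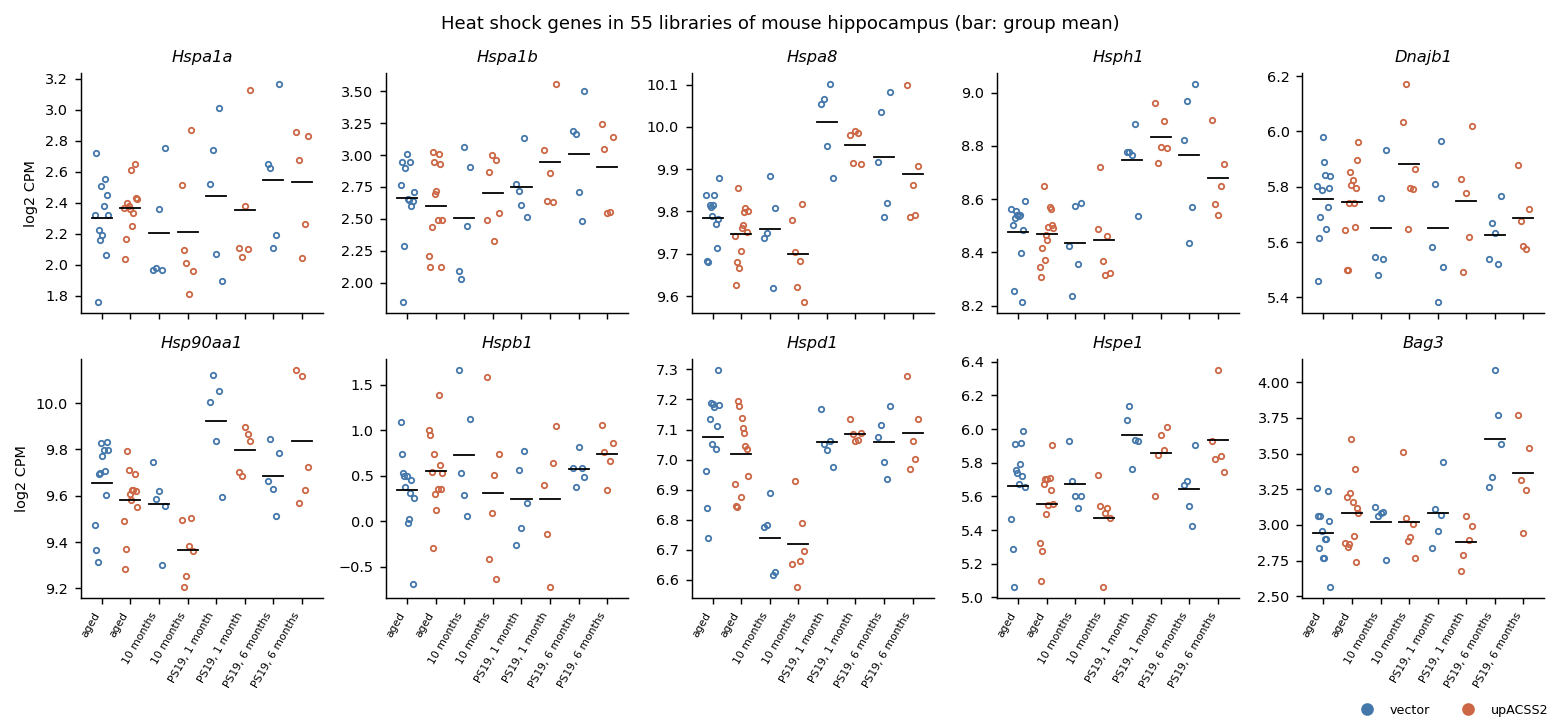
Level of members in the hippocampus of aged, 10-month and PS19 mice, as log2 CPM on the vertical axis, with 1 point per mouse and the group mean as a line. The upACSS2 and vector groups overlap in every member, and in PS19 vector mice Bag3 runs from 7.02 to 10.7 CPM at 1 month and from 9.48 to 16.9 CPM at 6 months.

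Within groups, mice with more RNA of the inducible Hsp70 also had more RNA of 5 of the 8 other members: Hsph1, Hspa8, Dnajb1, Hspd1 and Hsp90aa1. Each member was related to the summed level of Hspa1a and Hspa1b, as log2 CPM centred on its group, with permutation of libraries within groups. These groups did not separate aged replicates 1 to 3 from 4 to 12. The p-values of relations in the mice therefore do not allow for that split. There were 16 such relations, 8 members in the mice and in culture, and 6 passed after adjustment. Over 55 mice Hsph1 gave Pearson's r of 0.634 and Spearman's rho of 0.625 (two-sided permutation test, adjusted p = 0.00064 for both), and 0.660 without the 2 mice farthest from the median. Within the aged, 10-month and PS19 tables r was 0.578, 0.654 and 0.659. Hspa8 gave 0.559 (rho 0.541, adjusted p = 0.000693) and Dnajb1 0.553 (rho 0.547, adjusted p = 0.00064). For Dnajb1 the values within the tables were 0.275, 0.484 and 0.809.

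Weaker relations were found for Hspd1 (r 0.385, adjusted p = 0.0154) and Hsp90aa1 (0.373, adjusted p = 0.0295, but 0.0529 for rho). Hspe1 (0.240, adjusted p = 0.144), Hspb1 (0.011) and Bag3 (-0.009) did not pass. In the 18 aged mice of replicates 4 to 12, r was 0.203 for Hsph1, 0.129 for Hspa8, -0.052 for Dnajb1, 0.094 for Hspd1 and 0.496 for Hsp90aa1. In the aged mice all of these but Hsp90aa1 were thus weak without replicates 1 to 3. At 10 months r was 0.126 for Hspd1 and 0.049 for Hsp90aa1. In 43 cultures only Hsp90aa1 passed, with r of 0.637 (adjusted p = 0.0382, and 0.450 without the 2 farthest) but not with rho of 0.487 (adjusted p = 0.0529). Within the resting, stimulated and virus-free tables its r was 0.569, 0.092 and 0.918, while over all cultures Bag3 had the opposite sign (-0.496, adjusted p = 0.0852). Libraries share a scaling and a preparation, which these relations do not separate.

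Bag3 went with astrocyte markers in culture. This family of 20 relations, of each member with the mean log2 CPM of the 8 astrocyte markers, was added after the data were seen, and 6 passed. Over 43 cultures Bag3 gave r of 0.890 and rho of 0.879 (permutation p 1e-05, the smallest that the permutations can give, adjusted p = 0.0002), 0.866 without the 2 farthest cultures, and 0.959, 0.814 and 0.904 within the resting, stimulated and virus-free tables. Hspa8 (-0.775, adjusted p = 0.0335), Hsp90aa1 (-0.660, 0.0447) and Hspa1b (-0.647, 0.0445) had the opposite sign. In 55 mice only Hsph1 (-0.463, adjusted p = 0.0335, 0.0663 for rho) and Hspe1 (0.356, 0.0335) passed. Cultures with more astrocyte RNA thus had more Bag3 RNA in these libraries, and which cells the Bag3 RNA came from was not measured.

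**Figure D5:**
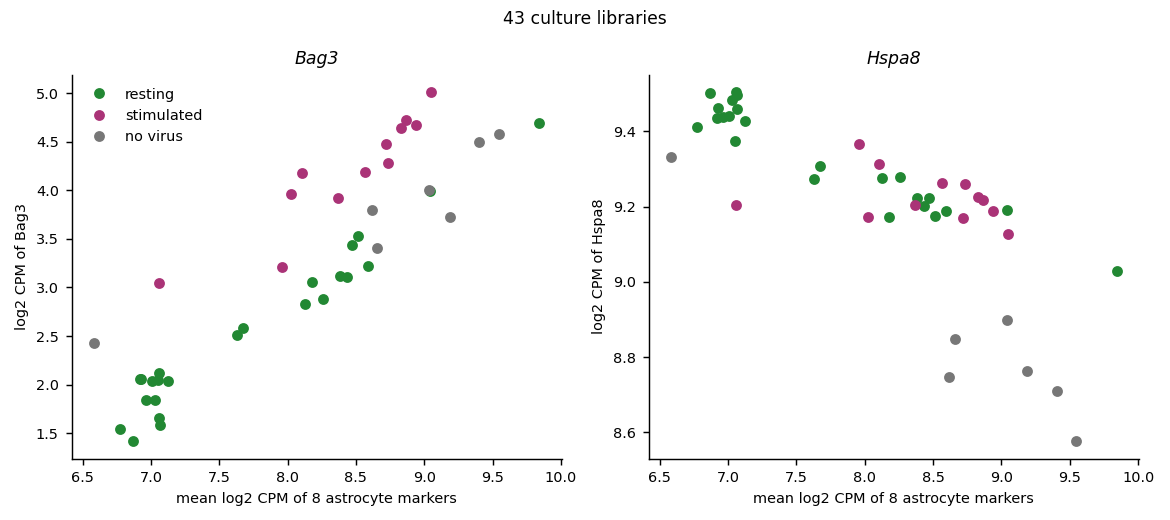
Levels of Bag3 and Hspa8 against the mean level of 8 astrocyte markers, both as log2 CPM, with 1 point per cultured library. Bag3 rises with the markers and Hspa8 falls. The points are plotted uncentred, while the r of 0.890 and -0.775 in the text are for values centred on each group.

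The genes most like the mean of 8 members (all but Bag3 and Hspb1) were sought over all 98 libraries among 12682 genes. Pearson's r was taken between each gene and that mean, each centred on its group. The highest were Khdrbs3 (0.745), Cdkn2d (0.744), Ahsa1 (0.740), Ensa (0.731), Sucla2 (0.729), Zc3h15 (0.725), Ccdc32 (0.717), Gnai1 (0.713), Pcmt1 (0.712) and Calm2 (0.705). Only Ahsa1, the activator of the Hsp90 ATPase, is a chaperone gene of the fixed list, and Bag3 had r of -0.332 with the same mean. The members in the mean did not follow it alike. Hspa1a, Hspa1b, Hspa8 and Hsp90aa1 had r of 0.748 to 0.803. Hsph1 (0.690), Dnajb1 (0.598), Hspd1 (0.551) and Hspe1 (0.463) lay below all the listed genes. In resting cultures r was -0.050 for Hspd1 and -0.291 for Hspe1, and in stimulated cultures 0.0096 for Hsph1. Centring was by group, so the split of the aged replicates given above stayed in. In aged mice r of the listed genes ran from 0.801 (Khdrbs3) to 0.905 (Zc3h15), but at 10 months from 0.145 (Gnai1) to 0.598 (Calm2). It was 0.395 (Calm2) to 0.8135 (Ahsa1) in PS19 mice and 0.281 (Ahsa1) to 0.904 (Gnai1) in resting cultures. In stimulated cultures it was 0.311 (Khdrbs3) to 0.900 (Sucla2), and without virus 0.843 (Ensa) to 0.987 (Gnai1).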

How the data were processed

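The members, the list of 62 other chaperone genes and the marker lists were chosen with earlier results of these data known. RNA was taken up in Trizol and cleaned on RNeasy columns, per the labels' protocols. Raw counts for each gene symbol were deposited by the authors in 6 tables, with 1 column per library and all 98 used. The genome build mm10 and the tools STAR, featureCounts, HTSeq and DESeq2 are named without their roles, per the submitters' processing notes. Counting precision is set by totals of 5075099 to 39985460 counts per library. Intervals cover counting error only. The labels do not say that replicates of the cultures are separate cultures, so p-values measure the spread between these samples, which may be technical.

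The main test was that of edgeR 4.0.16 under R 4.3.3 (quasi-likelihood F test, TMM scaling, default filter on low counts by group, robust, two-sided, Benjamini-Hochberg over all genes tested, threshold 0.05), in 31 comparisons, 4 of them added after the data were seen. Standard errors are those of the fit. Groups of a table shared 1 fit. Resting cultures were fitted per day for comparisons within a day, and over all 24 libraries between days. CPM are counts scaled to library size with TMM factors, and log2 CPM used a prior count of 2. The edgeR step was tested on simulated data. Relations used 100000 permutations within groups. Sequences were read from RefSeq promoters on GRCm38.p6 with Python 3.11.15.

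All members may be named in every comparison, with values per library where a member passed in at least 1 comparison or where groups did not overlap at a log2 fold change of at least 0.5. Of other chaperone genes, at most the 4 largest changes past the threshold per comparison are named, and 1 that met this rule is not reported here. Alternatives were DESeq2 1.42.0, limma 3.58.1, size factors by RLE, keeping all low counts, other sets of libraries in the fit, the Rn45s share as a covariate, both Hspa1 copies summed, the replicate number as a block and each library left out in turn. Replicate numbers come from the titles. Same-numbered libraries deviated together, with every correlation over 0.1, for stimulated upACSS2 against vector with tau (0.111 to 0.36), stimulated tau against PBS in vector (0.124 to 0.327), cultures without virus (0.22 to 0.394) and stimulated against resting upACSS2 in PBS (0.374 to 0.58).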

Additional observations from a re-analysis of the deposited data

Results flagged for a closer look

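In groups of 4 to 10 samples the level of each member was checked for a library far from the rest by Dixon's ratio. Of 70 such checks 6 were past the 95% limit, and chance gives about 1 in 20, or 3.5 here. Hspa1a was at 8.61 CPM in PS19 upACSS2 mice at 1 month, replicate 5, against 4.01 to 5.07 CPM in the others of its group. Hspe1 was at 81.6 CPM in PS19 upACSS2 mice at 6 months, replicate 3, against 53.4 to 60.9 CPM. Bag3 was at 11.1 CPM in replicate 1 of the 10-month upACSS2 mice (6.54 to 7.99 CPM in the others) and at 6.47 CPM in replicate 5 of the 10-month vector mice (8.06 to 8.44 CPM in the others). In cultures without virus and with tau, Hspa1b was at 3.50 CPM in replicate 3 (2.08 to 2.17 CPM in the others), and Hsp90aa1 at 361.5 CPM in replicate 1 (397 to 400.0 CPM in the others).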

How the results depend on the processing

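Values here are numbers of members called. No fold changed direction past the threshold in any alternative run. On day 9 the virus in PBS gave 3, but 0 with the Rn45s covariate or all 24 resting libraries in the fit, and 1 to 3 with 1 library left out. Tau in vector gave 2, with 4 (Rn45s covariate), 0 (all 24 libraries), 0 (only the groups compared) and 0 to 4 (1 left out), and the interaction 0, with 1 (no filter), 1 (Rn45s covariate) and 0 to 1. For the virus in PBS on day 21, 0 became 2 with DESeq2 and 2 with all 24 libraries. In stimulated cultures the virus in PBS gave 0, with 1 (DESeq2), 1 (replicate block) and 0 to 1. The virus with tau gave 0, with 2 (DESeq2), 1 (no filter), 1 (replicate block), 1 (Rn45s covariate) and 0 to 2. Tau in vector gave 1, with 3 (DESeq2), 2 (replicate block), 0 (Hspa1 copies summed), 3 (Rn45s covariate), 0 (only the groups compared) and 0 to 3, and tau in upACSS2 gave 0, with 1 (DESeq2), 1 (replicate block) and 1 (only the groups compared). Day 21 against day 9 in vector with tau gave 6, and 2 to 5 with 1 left out. PS19 vector mice over time gave 0, with 1 (DESeq2) and 0 to 1. Stimulated against resting gave 2, 1, 2 and 1. The first had 1 (no filter), 0 (Rn45s covariate), 0 (only the groups compared) and 0 to 3, and the second 2 (DESeq2), 2 (replicate block) and 1 to 2. The third had 0 (Rn45s covariate) and 0 to 1, and the last 0 (no filter), 0 (Rn45s covariate), 0 (only the groups compared) and 0 to 1. Of 16 relations with Hspa1, 6 passed, and of 18 with Hspa8 as the reference, 10. The cause was not tested, except that all 24 libraries bring the larger spread of day 21 into day 9. The replicate block changed no other call where the numbers pair the libraries. Elsewhere the numbers are only shared. The Rn45s covariate was not run where a table does not list that gene, and no library was left out in the aged mice. With 1 library left out, 1 arm has 2 libraries. Depth limits Hspb1 on day 9.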
